A study of Mus musculus with 6 samples.

Results

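Genes of the nuclear receptor family were followed in the livers of mice with chronic hyperlipidemia induced by repeated injection of P-407, a poloxamer surfactant known to elevate plasma lipids. The family was taken as 43 named mouse genes, and it was measured by the array features whose annotation names 1 gene only, that gene being a member. Of the 43 genes, 40 were tested among 16871 genes on an oligonucleotide array, and 23 of those 40 were also tested among 5011 genes on a cDNA array. Nr1h2, Nr2e3 and Nr3c2 have no feature in the annotation of either array. The treated mice were 12 C57BL/6 females that were 7 weeks old at the start, ate a chow with 4.4% fat and were injected intraperitoneally with P-407 (0.5 g/kg, 1 dose per 3 days), and the 4 control mice were the same but received saline. Livers were taken at day 96, treated RNA was combined into 3 pools, and each pool in Cy5 was hybridised on both array types against 1 control pool in Cy3. Values are log ratios whose base and direction the labels do not state; they were read as log2 of treated over control RNA, where a negative one means less RNA in the treated liver than in the control. Single mice cannot be told apart in the pools, and the spread between control mice is not in any test. Because whole liver was used, fewer cells of a type and less RNA per cell cannot be told apart, and ratios give no levels, so neither the tissue nor the presence of a receptor could be checked against marker levels.

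Nuclear receptors are transcription factors that bind DNA through zinc fingers, and most of them are switched by small fat-soluble ligands. Receptors for steroids usually bind DNA as pairs of themselves, while receptors for lipids, bile acids, drugs, retinoic acid, thyroid hormone and vitamin D mostly pair with a retinoid X receptor (RXR). In liver they adjust the handling of fatty acids, sterols, bile acids, glucose and foreign compounds to what arrives in the blood. Many of these receptors bind variants of the hexamer AGGTCA, set singly or as repeats.

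The promoters of 4 genes on which the results turn are shown first. On the oligonucleotide array Ppara, Nr1i2 and Nr1i3 had some of the lowest ratios among the receptor genes, and Rarb had the highest. Each sequence is the 250 bases before the annotated start, 5′ to 3′ along the gene, from RefSeq on build GRCm38.p6. Capitals mark matches, on either strand, to the hexamer AGGTCA, to its variant AGTTCA, to a direct repeat in which GGTTCA is followed after 5 bases by AGTTCA, to the E-box CACGTG or to the D-box TTANGTAA.
Nr1i2, chr16:38294825-38295074, minus strand: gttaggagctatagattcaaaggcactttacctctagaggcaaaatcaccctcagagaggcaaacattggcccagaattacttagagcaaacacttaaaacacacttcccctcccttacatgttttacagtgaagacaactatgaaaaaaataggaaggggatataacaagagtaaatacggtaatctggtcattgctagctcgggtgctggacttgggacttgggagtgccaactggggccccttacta
Nr1i3, chr1:171213720-171213969, plus strand: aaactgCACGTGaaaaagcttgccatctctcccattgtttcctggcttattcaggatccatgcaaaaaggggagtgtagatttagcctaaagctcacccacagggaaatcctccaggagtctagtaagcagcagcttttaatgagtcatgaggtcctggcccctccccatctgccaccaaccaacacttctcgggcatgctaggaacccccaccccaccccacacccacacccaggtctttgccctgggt
Ppara, chr15:85735526-85735775, plus strand: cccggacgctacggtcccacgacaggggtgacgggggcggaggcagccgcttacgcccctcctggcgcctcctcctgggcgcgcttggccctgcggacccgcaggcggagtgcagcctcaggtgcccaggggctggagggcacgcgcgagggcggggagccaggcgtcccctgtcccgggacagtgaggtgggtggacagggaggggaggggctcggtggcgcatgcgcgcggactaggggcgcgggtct
Rarb, chr14:16575477-16575726, minus strand: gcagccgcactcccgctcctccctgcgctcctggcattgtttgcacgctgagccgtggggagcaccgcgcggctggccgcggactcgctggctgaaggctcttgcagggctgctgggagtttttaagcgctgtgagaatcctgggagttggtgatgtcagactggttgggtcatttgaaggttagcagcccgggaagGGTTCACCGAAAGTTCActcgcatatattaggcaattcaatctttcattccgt
The Rarb window holds the direct repeat, beginning 53 bases before the start, and this motif was found in 2 of 32851 windows of the same length over all genes. This repeat is the textbook retinoic acid response element of Rarb. The half-sites of the motif are those of that element, so its match in Rarb followed from the choice of motif. Other forms of the repeat were not counted. The Nr1i3 window holds an E-box beginning 244 bases before the start, a motif in 6.02% of all windows. The windows of Nr1i2 and Ppara hold none of the 5 motifs. They also differ in base composition, with 76.4% G and C for Ppara against 44.0% for Nr1i2. Of the 60 windows of 39 member genes, 9 hold AGGTCA, against 14.0% of all windows, and 8 hold AGTTCA, against 11.8%. These matches, some of which overlap one another, are descriptions of the sequence and not of binding.

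As a family the receptors changed about as often as any genes. On the oligonucleotide array 17 of 40 members passed the threshold (limma adjusted p under 0.05), 8 higher and 9 lower, which is 42.5% of the members beside 43.4% of all 16871 genes (22.0% higher and 21.4% lower). The median log2 ratio of the 40 members was -0.01, and their median absolute ratio was 0.13, as for all genes. No member reached a 2-fold difference, and the ratios ran from -0.54 for Nr1i2 to 0.33 for Rarb. Chemosensory receptor genes, which liver is not known to use, give a scale for these sizes: 90% of 862 such genes lay between -0.38 and 0.24, and 36.1% of them passed the same threshold. Of the 40 receptors, 32 lay within that range. Those outside it were Nr1i2, Ppara, Rorb, Nr1i3 and Esrra on the lower side and Rarb, Pparg and Nr2f1 on the higher side. The share of all genes outside the range was not counted, so this list shows nothing particular to receptors.

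**Figure D1:**
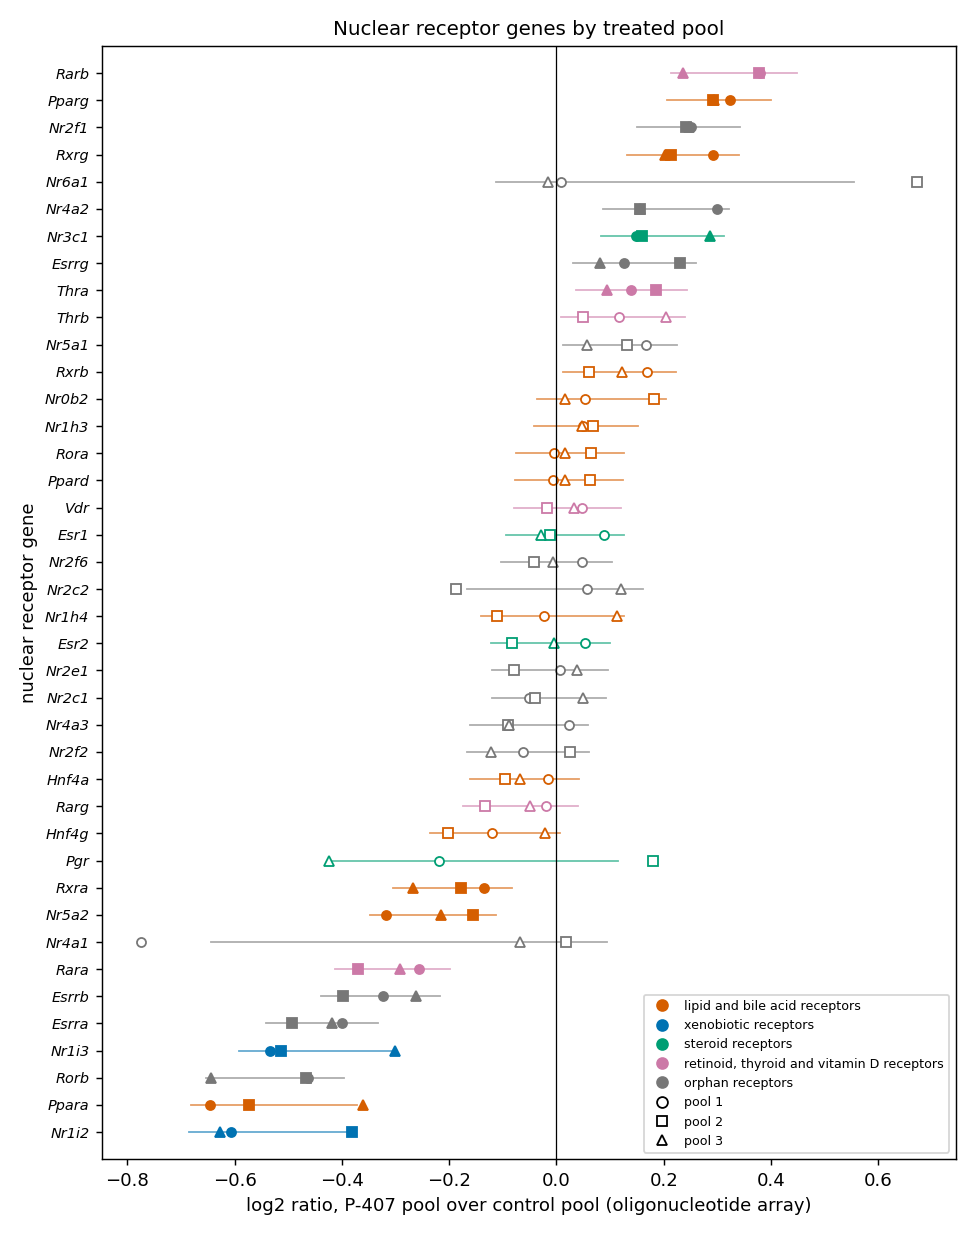
Log2 ratio of P-407 over control for the 40 receptor genes measured on the oligonucleotide array, sorted by their mean. Symbols are the 3 treated pools, filled where limma's adjusted p was under 0.05, and lines are the 95% intervals of the mean. The ratios run from -0.54 for Nr1i2 to 0.33 for Rarb, and the 17 filled genes have 1 sign in all 3 pools.

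Of the 17 calls, 10 held with any 1 pool left out, namely Nr1i2, Nr1i3, Ppara, Rara, Rorb, Esrra and Esrrb among the lower and Pparg, Rarb and Nr2f1 among the higher. The others depended on 1 or more pools, and without pool 1 only 10 members passed. A one-sample test of each gene without the prior that limma shares across genes called 0 of the 40 members (20 of them had a limma p under 0.05 before adjustment).

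The receptors were divided into lipid and bile acid receptors, xenobiotic receptors, steroid receptors, receptors for retinoids, thyroid hormone and vitamin D, and orphan receptors. The xenobiotic pair stood lowest, with a median log2 ratio of -0.49 on the oligonucleotide array, against 0.02 for 13 lipid and bile acid receptors and 0.00 for 4 steroid receptors. Over pools 1, 2 and 3 the xenobiotic median was -0.57, -0.45 and -0.46, the lipid median -0.01, 0.06 and 0.02, and the steroid median 0.07, 0.07 and -0.02. Among lipid receptors 3 were lower, 2 were higher and 8 did not pass, and only Ppara lay in the range of the xenobiotic pair. Among steroid receptors 1 was higher and 3 did not pass. On the cDNA array the order differed, with a median of -0.48 for 9 lipid and bile acid receptors. Nr1i2, the only xenobiotic receptor tested there, had a mean of 0.07, and Nr3c1, the only steroid receptor, 0.49. These class values are descriptions, with no test over the members.

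**Figure D2:**
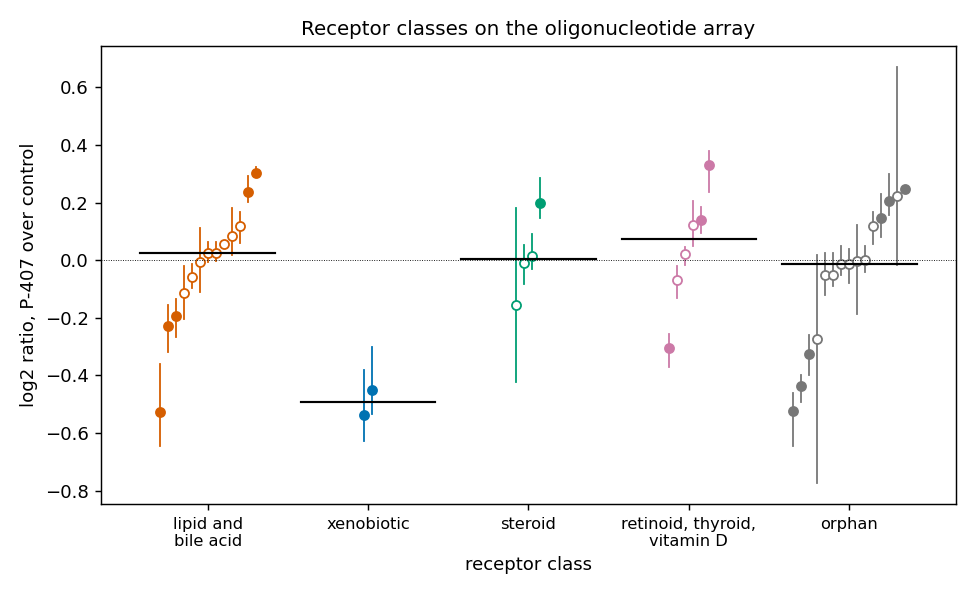
Mean log2 ratio of P-407 over control on the oligonucleotide array for each receptor gene, by class. Vertical lines span the 3 pools, filled circles passed limma's threshold, and black bars are class medians, of which the xenobiotic one lies at -0.49 and the other 4 between -0.01 and 0.07.

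Both xenobiotic receptors were lower on the oligonucleotide array. Nr1i2 (gene ID 18171) encodes PXR, which detects drugs and bile acids and switches on cytochrome P450 genes. Its log2 ratios in pools 1, 2 and 3 were -0.61, -0.38 and -0.63, a mean of -0.54 ± 0.14 (SD, n = 3), which is 1.45-fold lower (limma adjusted p = 0.00181). Its cDNA ratios were -0.22, 1.01 and -0.59, so pool 2 stood on the other side of 0 there and the 3 pools gave no common direction. Nr1i3 (gene ID 12355) encodes CAR, the related receptor that responds to phenobarbital. Its ratios were -0.53, -0.51 and -0.30, a mean of -0.45 ± 0.13, which is 1.37-fold lower (limma adjusted p = 0.00278). All 3 pools of both genes were below 0 on the oligonucleotide array. The pool closest to 0 was pool 2 for Nr1i2, at -0.38, and pool 3 for Nr1i3, at -0.30.

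The 3 peroxisome proliferator-activated receptors, which sense fatty acids, moved apart. Ppara (gene ID 19013), which drives fatty acid oxidation in hepatocytes, had ratios of -0.65, -0.57 and -0.36, a mean of -0.53 ± 0.15 and 1.44-fold lower (limma adjusted p = 0.00222). Its cDNA feature was low in every pool as well, at -1.06, -0.83 and -0.62. Ppard, the broadly expressed member, did not pass, with a mean of 0.02 and a 95% interval of -0.08 to 0.12. Pparg (gene ID 19016), which serves fat storage and is also used by macrophages, had ratios of 0.32, 0.29 and 0.29, a mean of 0.30 ± 0.02 and 1.23-fold higher (limma adjusted p = 0.00284). On the cDNA array Pparg was positive in all pools but spread widely, at 2.29, 0.97 and 0.39. Within each pool of the oligonucleotide array Pparg exceeded Ppara by 0.97, 0.87 and 0.65, and an exact sign-flip test of 3 pools cannot give a two-sided p below 0.25. Macrophage and Kupffer cell markers moved in the same livers, with 10 of 15 higher, 4 lower and pool medians between 1.19 and 1.58, and hepatocyte markers had 7 of 12 lower and 0 higher, with pool medians between -0.43 and -0.30. The part of these markers in the receptor ratios was not tested.

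The main sterol and bile acid receptors did not pass on the oligonucleotide array, and the cDNA ratios of Nr1h3 and Nr1h4 lay below 0. Nr1h3, which encodes the oxysterol receptor LXR alpha of hepatocytes and macrophages, had ratios of 0.05, 0.07 and 0.05, and its 95% interval ran from -0.04 to 0.15. Nr1h4, the bile acid receptor FXR, had an interval of -0.14 to 0.13. Nr0b2, the corepressor SHP that FXR induces, lay at 0.08 ± 0.09 (limma adjusted p = 0.210). The pools of Nr1h4 lay on both sides of 0 there, and those of Nr1h3 and Nr0b2 were all slightly above it. The cDNA ratios of Nr1h3 were -0.54, -0.77 and -0.13 and those of Nr1h4 -0.52, -0.87 and -0.72, negative in every pool though neither passed (limma adjusted p = 0.177 and 0.102). Nr5a2, the receptor LRH-1 that promotes bile acid synthesis, had ratios of -0.32, -0.15 and -0.21, a mean of -0.23 ± 0.08 (limma adjusted p = 0.0124). This call was lost without pool 1. Hnf4a, which sustains hepatocyte identity, had a 95% interval of -0.16 to 0.04, its relative Hnf4g one of -0.24 to 0.01, and Rora, which binds sterols, one of -0.07 to 0.13, all on the oligonucleotide array. The cDNA ratios of Hnf4a were negative in every pool, at -0.47, -0.29 and -0.36 (limma adjusted p = 0.156).

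The RXR partners were divided on the oligonucleotide array. Rxra, the main hepatic partner, had ratios of -0.13, -0.18 and -0.27, a mean of -0.19 ± 0.07 (limma adjusted p = 0.0178). Rxrg had ratios of 0.29, 0.21 and 0.20, a mean of 0.24 ± 0.05 (limma adjusted p = 0.00748), and Rxrb did not pass at 0.12 ± 0.05 (limma adjusted p = 0.0714). On that array the 3 pools of Rxra lay below 0 and all those of Rxrb and Rxrg above it, whereas the cDNA ratios of Rxrb, like those of Rxra, were negative in all pools, at -1.36, -0.93 and -0.70. The call of Rxra was lost with any 1 pool left out, and that of Rxrg without pool 1.

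Of the steroid receptors, the glucocorticoid receptor gene passed. Nr3c1 had ratios of 0.15, 0.16 and 0.29, a mean of 0.20 ± 0.08 and 1.15-fold higher (limma adjusted p = 0.0186), and it was higher in all 3 pools of the cDNA array too, at 0.65, 0.43 and 0.39. The call was lost with any 1 pool left out. The estrogen receptor genes Esr1 and Esr2 had 95% intervals of -0.09 to 0.13 and -0.12 to 0.10. Pgr, the progesterone receptor gene, spread over the pools at -0.22, 0.18 and -0.42, and it did not pass (limma adjusted p = 0.297), except without pool 2, at -0.32 (limma adjusted p = 0.0305).

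Of the receptors for vitamin A, Rara was lower and Rarb higher on the oligonucleotide array. Only Rarb lay outside the range of the chemosensory receptor genes. Rara, the receptor for retinoic acid found in most tissues, had ratios of -0.26, -0.37 and -0.29, a mean of -0.31 ± 0.06 and 1.24-fold lower (limma adjusted p = 0.00368). Rarb, whose promoter carries the response element shown above, had ratios of 0.38, 0.38 and 0.24, a mean of 0.33 ± 0.08 and 1.26-fold higher (limma adjusted p = 0.00382). Rarb exceeded Rara in each pool of the oligonucleotide array, by 0.64, 0.75 and 0.53. On the cDNA array neither had a common direction, with Rara at -0.54, 1.19 and -0.39 and Rarb at -0.59, -0.32 and 1.98. Rarg did not pass, with an interval of -0.17 to 0.04. Markers of stellate cells, which store vitamin A, were higher in 9 of 11 and lower in 0, with pool medians between 0.38 and 0.61. The part of these markers in the Rarb ratio was not tested.

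Thyroid hormone and vitamin D receptors had small ratios on the oligonucleotide array. Thra had ratios of 0.14, 0.19 and 0.09, a mean of 0.14 ± 0.05 (limma adjusted p = 0.0405), which was lost with any 1 pool left out. Thrb, the main thyroid hormone receptor of hepatocytes, had a mean of 0.12 ± 0.08 and did not pass (limma adjusted p = 0.0790). The cDNA ratios of Thrb were negative in every pool, at -0.41, -0.42 and -0.02 (limma adjusted p = 0.269). Vdr, the vitamin D receptor gene, had an interval of -0.08 to 0.12 on the oligonucleotide array. The cDNA ratios of Vdr were low in every pool, at -1.83, -1.32 and -1.15 (limma adjusted p = 0.0984).

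Among 15 orphan receptors 3 were higher, 3 lower and 9 did not pass. Esrra, a regulator of mitochondrial genes that works with PGC-1 coactivators, had ratios of -0.40, -0.49 and -0.42, a mean of -0.44 ± 0.05 and 1.35-fold lower (limma adjusted p = 0.00125), and on the cDNA array -0.51, -0.71 and -0.43. The pools of Esrra lay close together on both array types. Esrrb was lower too, at -0.32, -0.40 and -0.26 (limma adjusted p = 0.00340), and Esrrg was higher at 0.13, 0.23 and 0.08 (limma adjusted p = 0.0483), a call lost with any 1 pool left out. Rorb, better known from brain and retina, had ratios of -0.46, -0.47 and -0.64, a mean of -0.52 ± 0.10 (limma adjusted p = 0.00133). Its signal over background is unknown, and it is not on the cDNA array. Nr2f1, which encodes COUP-TFI, gave nearly the same ratio in each pool, at 0.25, 0.24 and 0.25 (limma adjusted p = 0.00508), but 1.24, -0.20 and -0.72 on the cDNA array. Nr4a2, an immediate-early receptor gene, was higher at 0.30, 0.16 and 0.16 (limma adjusted p = 0.0184), a call lost without pool 1, but its cDNA ratios were all negative, at -1.87, -2.06 and -0.69. The other 9 had means between -0.27 for Nr4a1 and 0.22 for Nr6a1.

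Over 11 groups of closely related receptors there were 23 pairs on the oligonucleotide array, and in 13 of them the 95% intervals of the members did not overlap. On the cDNA array this held for 1 of 10 pairs. The share among pairs of other genes was not counted, so these counts show nothing particular to receptors. On the oligonucleotide array, besides the pairs given, Rxrg exceeded Rxra by 0.43, 0.39 and 0.47 in the 3 pools, and Esrrg exceeded Esrra by 0.53, 0.72 and 0.50. On that array the alpha member was lower in the PPAR, RAR and RXR groups, while the gamma or beta member was higher. In the ERR group the alpha and beta members were lower there while gamma was higher. This grouping was made after the values were seen. Of its genes, Rara, Rxra, Rxrg, Esrrb and Esrrg lay within the range of the chemosensory receptor genes. The calls of Rxra and Esrrg were lost with any 1 pool left out, and that of Rxrg without pool 1. The intervals of Nr1i2 and Nr1i3, of Thra and Thrb, and of Nr1h3 and Nr1h4 overlapped, and the pools of each of these pairs disagreed on which gene was higher.

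Of the 6 nuclear receptor genes of mouse outside the 43, 4 were tested on the oligonucleotide array. Nr1d2, the heme-binding clock repressor REV-ERB beta, had ratios of -1.04, -0.72 and -0.56, a mean of -0.78 ± 0.24 (limma adjusted p = 0.00202). On that array this was a larger decrease than that of any member. Its cDNA feature read -1.41, -0.81 and -1.31, and the cDNA means of the members Nr4a2, Rxra and Vdr were lower than its own. On the oligonucleotide array Nr1h5, a second FXR gene of rodents, was lower at -0.49 ± 0.16 (limma adjusted p = 0.00289), Nr0b1 was lower at -0.17 (limma adjusted p = 0.0175), and Nr1d1 spread from -0.32 to 0.25 and did not pass.

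Genes that the receptors are known to control were read from lists, and their counts stand against 22.0% (higher) and 21.4% (lower) of the genes tested. The lists were chosen with earlier results of these data known, so these contrasts are descriptions and not tests. Of 25 targets of the xenobiotic receptors PXR and CAR, 14 were lower and 2 higher, with a median log2 ratio of -0.22 against 0.00 for all genes. Alas1, which starts heme synthesis for cytochromes P450, was 2.02-fold lower (-1.01 ± 0.08), the sulfotransferase gene Sult1d1 lay at -0.51 ± 0.13 and the glutathione transferase gene Gsta1 at -0.37 ± 0.07, while the stress gene Gadd45b was higher at 0.85 ± 0.24, each with a limma adjusted p of at most 0.00240. The standard reporters of these receptors, looked up after the values were seen, differed from each other: Cyp2b10 of CAR was lower at -0.27 (limma adjusted p = 0.00504), and Cyp3a11 of PXR did not pass at 0.03 (limma adjusted p = 0.627). Lower PXR and CAR targets numbered 11 without pool 1, 10 without pool 2 and 13 without pool 3, and higher ones 1, 2 and 1. On the cDNA array Sult1d1 read 0.09, 0.07 and -0.01. The median of 12 PXR and CAR targets there was -0.08, against 0.06 for all genes.

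Of 19 glucocorticoid receptor targets tested, 9 were lower, 3 higher and 7 did not pass, with a median of -0.22. Nr3c1 itself was higher at 0.20, within the range of the chemosensory receptor genes, and its call was lost with any 1 pool left out. Tsc22d3, which encodes the glucocorticoid-induced leucine zipper GILZ, had ratios of -1.63, -1.37 and -1.06 and was 2.55-fold lower (limma adjusted p = 6.65e-04). Tat, tyrosine aminotransferase, was 2.34-fold lower, Tdo2, tryptophan dioxygenase, 1.88-fold lower, and Fkbp5, a chaperone partner of the receptor, 1.63-fold lower (largest limma adjusted p = 8.23e-04). Tsc22d3 and Fkbp5 were negative in every pool of the cDNA array too, with means of -1.09 ± 0.27 and -1.14 ± 0.34. Tat and Tdo2 are also in the hepatocyte marker list, of which 7 of 12 were lower, and the part of that shift was not tested.

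Thyroid hormone targets were lower in 7 of 10 and higher in 1, with a median of -0.34. Neither thyroid hormone receptor gene was lower on the oligonucleotide array. With any 1 pool left out, 5 of these targets were lower. Thrsp, a regulator of fat synthesis, was 4.01-fold lower, fatty acid synthase Fasn 2.03-fold lower, malic enzyme Me1 1.72-fold lower and Klf9, which is also a glucocorticoid target, 1.49-fold lower, each with a limma adjusted p of at most 0.00405. HNF4A targets were lower in 8 of 15 and higher in 1, with a median of -0.20, and without pool 2 there were 5 lower and 2 higher, without pool 1 there were 6 and 0. Slc25a15, a carrier of the urea cycle, lay at -0.53 ± 0.05, Mttp, which loads lipid onto apolipoprotein B, at -0.50 ± 0.04, the coagulation factor gene F7 at -0.31 ± 0.04 and Apoc3 at -0.45 ± 0.15, each with a limma adjusted p of at most 0.00360. The cDNA features of Mttp and F7 had positive means, 0.25 and 0.45, neither past the threshold. Hepatocyte markers were lower in 7 of 12 and higher in 0 in the same livers, with a median of -0.30, and their part in the ratios of the PXR and CAR, thyroid hormone and HNF4A targets was not tested.

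**Figure D3:**
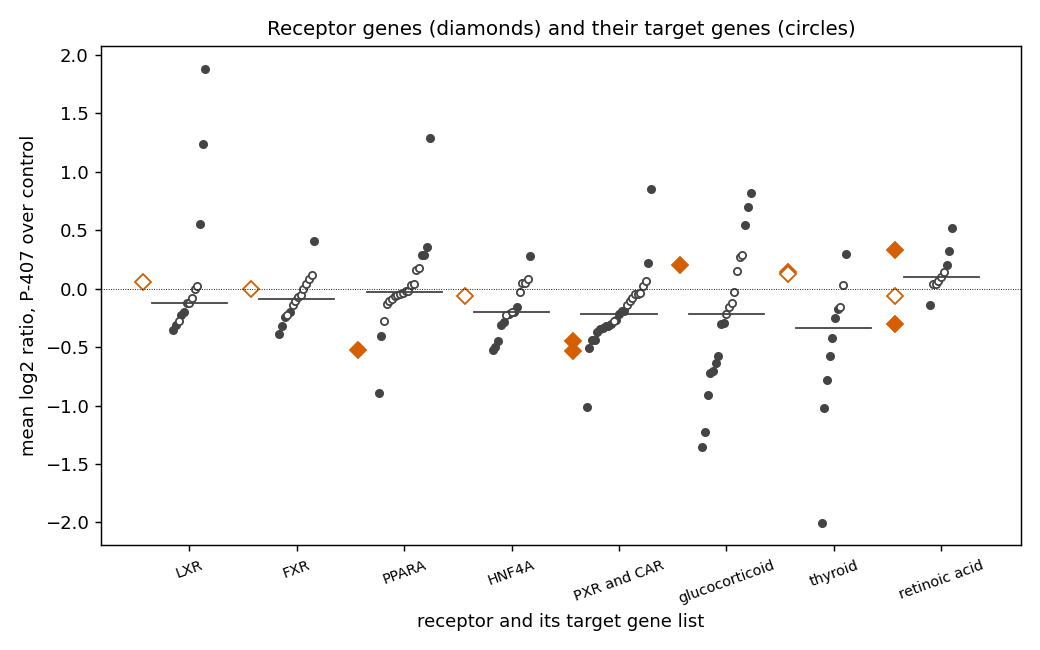
Mean log2 ratio of P-407 over control on the oligonucleotide array for receptor genes (orange diamonds) and the genes of the list of their targets (circles), filled where limma's adjusted p was under 0.05. Bars are list medians, which lie between -0.34 for thyroid hormone targets and 0.10 for retinoic acid targets.

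Targets of the lipid receptors went both ways. Of 13 LXR targets 3 were higher and 4 lower, with Lpl at 1.88 ± 0.11, the sterol exporter genes Abcg1 at 1.24 ± 0.18 and Abca1 at 0.55 ± 0.12, and Mylip, which degrades the LDL receptor, at -0.31 ± 0.08, while Nr1h3 did not pass. Without pool 2, 2 LXR targets were lower. On the cDNA array Lpl was also high, at 2.27 ± 0.15, and Abca1 had a negative mean of -0.58 ± 0.50. Of 20 PPARA targets 4 were higher, 2 lower and 14 did not pass, with a median of -0.03. Acot3, a peroxisomal thioesterase gene, lay at -0.89 ± 0.14 and Pdk4, a brake on glucose oxidation, at 1.29 ± 0.24. Hsd17b4 lay at 0.29 ± 0.08 and the lipid droplet gene Plin2 at 0.36 ± 0.15. The cDNA features gave Pdk4 the opposite sign, at -0.67 ± 0.25. Of 14 FXR targets 4 were lower and 1 higher, with the bile acid conjugation genes Slc27a5 at -0.39 ± 0.19 and Baat at -0.24 ± 0.10, Fetub at -0.32 ± 0.11 and Apoc2 at 0.41 ± 0.24. Without pool 2, 3 FXR targets were higher and 2 lower. The lists share some genes, and the limma adjusted p of each gene named as higher or lower was at most 0.0147.

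Retinoic acid targets were few. Of 9 tested 3 were higher and 1 lower, namely the retinol receptor gene Stra6 (0.32 ± 0.11), the retinol-esterifying gene Lrat (0.52 ± 0.33) and the retinal reductase gene Dhrs3 (0.20 ± 0.09), with Rarres2 at -0.14 ± 0.01. The largest limma adjusted p of these was 0.0315. Lrat is also in the stellate cell marker list, and without pool 1 only 1 of the 9 was higher. Rarres2 was not called with any 1 pool left out, and the cDNA feature of Stra6 had a mean of the other sign, -1.52 ± 1.76. Of 25 genes that make, carry or break down receptor ligands, 12 were lower and 3 higher, with a median of -0.21. Without pool 1 or pool 2, 9 of them were lower, and without pool 3, 11. Cyp39a1, an oxysterol hydroxylase, was 2.25-fold lower, Hsd17b7 1.80-fold lower and Akr1d1, which reduces steroids and bile acid precursors, 1.49-fold lower, while Hsd11b2, which inactivates glucocorticoids, was 1.36-fold higher (largest limma adjusted p = 0.00201). Of 23 coregulators 4 were higher and 6 lower, with a median of 0.01. Lpin1 lay at -0.71 ± 0.09 and Ppargc1b, a coactivator of Esrra, at -0.34 ± 0.16, while Ncoa5 lay at 0.34 ± 0.10 and the corepressor gene Nrip1 at 0.29 ± 0.12, each with a limma adjusted p of at most 0.00999. Leaving out any 1 pool left 2 coregulators higher, and leaving out pool 1 left 3 lower.

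The cDNA array read the same RNA pools with wider scatter. The median SD over pools was 0.32 there against 0.08 on the oligonucleotide array, over all genes tested. None of the 23 members passed limma's threshold on the cDNA array, and 0 of all 5011 genes did (0% of all), although 11 members and 1518 genes had a p under 0.05 before adjustment and the smallest adjusted p was 0.0984. When the prior was not shared across genes, 0 members and 1 gene passed. Of the 23 members, 15 had the same sign on both array types (65.2%), beside 58.1% of all 4702 genes measured on both. Of 9 lipid and bile acid receptors 7 lay below 0 on the cDNA array, beside 13 of all 23 members and 2279 of all 5011 genes. The median of these 9 was -0.48 against 0.06 for all genes.

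Some of the cDNA ratios were much lower than their oligonucleotide counterparts. Rxra read -1.82, -1.32 and -1.24 on the cDNA array, and all 3 pools of Rxrb, Vdr, Nr1h4 and Nr4a2, given above, were negative there too. A second cDNA feature of Rxra with values in pools 1 and 3 read -0.93 and -1.0. In a fit across the 6 arrays 5 of 23 members differed between array types (21.7%, against 11.4% of all genes, 6.25% with the lower and 5.17% with the higher ratio on the cDNA array), all 5 with the lower ratio there, and with the pool as a block 0 members and 0 of all genes passed. Without pool 1, and without pool 2, 0 members passed this fit as well. The label of the RNA differed between the array types, directly from 10 ug for the cDNA array and after amplification from 0.5 ug for the oligonucleotide array, and the part of labelling and of the spotted sequence was not tested.

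**Figure D4:**
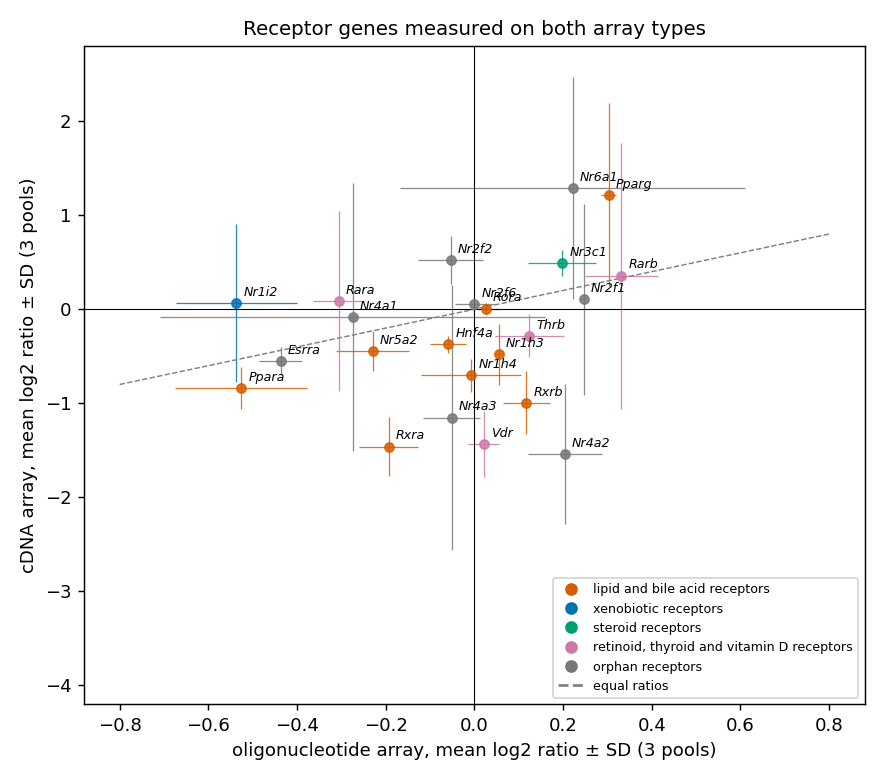
Mean log2 ratio ± SD over 3 pools on the cDNA array against that on the oligonucleotide array for the 23 receptor genes measured on both, with the dashed line at equal ratios. The axes have different scales. Rxra, Vdr and Nr4a2 lie below -1.4 on the cDNA array and between -0.20 and 0.21 on the oligonucleotide array.

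With the 2 arrays of a pool averaged, Rxra (-0.83, limma adjusted p = 0.0394) and Vdr (-0.71, limma adjusted p = 0.0457) passed among 23 members (8.70%, against 5.10% of all genes, 2.47% higher and 2.64% lower), and the call of Rxra was lost without pool 1 or pool 2 and that of Vdr with any 1 pool left out. The negative average of Vdr came from its cDNA ratios, since its oligonucleotide mean was 0.02. Ppara was negative on all 6 arrays, with an average of -0.68 (limma adjusted p = 0.0501), and so was Esrra, at -0.49 (limma adjusted p = 0.0536). Nr5a2 and Hnf4a were also negative on all 6 arrays, and Nr3c1 and Pparg were positive on all 6, and these 4 did not pass in the average.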

How the data were processed

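The values are log ratios made by the authors, with log2 as the scale read here, deposited as 1 per feature and array, and their background correction, normalization and filters are not stated by the labels or files. The labels name neither log base, centring nor direction. They were read as log2 because the largest absolute value, 6.34, exceeds 4.82, which a log10 ratio of 16-bit intensities cannot pass, while a natural log is possible and would make each fold larger. Direction follows the titles and dyes, and no dye swap exists, so dye and treatment effects of a gene cannot be told apart. Exact 0 was treated as missing (1257 to 1277 oligonucleotide and 3421 to 5332 cDNA features per array). Medians of non-zero values were 0.01 on each oligonucleotide array and -0.07, -0.09 and -0.02 on the cDNA arrays, and were subtracted. Columns with zeros included had a median of 0.

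Features were named from the platform annotation. On the oligonucleotide array 18658 of 22575 features named 1 gene and 30 several, and on the cDNA array 7410 of 13482 and 438, the others none. Features with several genes were left out (1 and 5 of these name a member), and features with values on all 3 arrays were averaged per gene. All 43 members are in a RefSeq gene table of GRCm38.p6. Means were tested against 0 with limma 3.58.1 in R 4.3.3 (lmFit, eBayes, Benjamini-Hochberg over all genes of an array type). Tables and plots used Python 3.11.15, pandas 2.3.3 and matplotlib 3.10.9. The fits were tested on simulated data. Precision is set by the number of arrays and by the prior that limma shares across genes. The limma p-values weigh a gene's own spread over the 3 pools, against 1 control pool, together with that prior. In both parts the spread is between treated pools only.

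Pool numbers pair the arrays because both types read the same RNA, and deviations of a pool's 2 arrays correlated at 0.06, 0.07 and 0.07 over 4702 genes. Members, classes and lists were chosen with earlier results of these data known. Values by pool are given for members past the threshold or at 0.5 or more in size, and for each list the up to 4 called genes of smallest p. Alternatives were the centring, zeros, scaling, missing values, choice of feature, prior, pools left out and the pool as a block.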

Additional observations from a re-analysis of the deposited data

Results flagged for a closer look

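Of the 23 receptor genes measured on both array types, 5 gave ratios that differed between the types by the test of the difference (limma across 6 arrays). The oligonucleotide minus cDNA difference in log2 ratio was 1.74 for Nr4a2 (adjusted p = 0.0430), 1.45 for Vdr (adjusted p = 0.0211), 1.27 for Rxra (adjusted p = 0.0217), 1.11 for Rxrb (adjusted p = 0.0289) and 0.70 for Nr1h4 (adjusted p = 0.0385), in limma without a block. With the pool as a block the limma adjusted p of these 5 lay between 0.128 and 0.135. All 3 cDNA ratios of each gene were negative, and on the oligonucleotide array Rxra was negative, Rxrb and Nr4a2 were positive, and Vdr and Nr1h4 had both signs.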

How the results depend on the processing

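On the oligonucleotide array 17 members were called under every centring, scaling, zero, missing-value, feature and robust-prior alternative, and 10 to 14 with 1 pool left out. The test without the shared prior called 0 members and 40 of all genes, against 7318, and with 1 pool left out 4025 to 6244 genes were called. On the cDNA array that test called 1 gene, and 0 members were called under every alternative, pools left out included. For both array types averaged, 2 members and 240 genes were called: 5 and 546 with arrays scaled, and 0 and 0 with zeros kept, with values on at least 2 arrays, or without the shared prior. With 1 pool left out this average gave 0 to 3 members and 0 to 373 genes. For the difference between array types, 5 members and 537 genes were called, 2 and 290 with zeros kept, 831 genes with arrays scaled, and 3 members without the shared prior. With the replicate block 0 members and 0 genes passed, and with 1 pool left out 0 to 7 members and 0 to 1077 genes. Rarb changed the sign of that difference to 0.83 without pool 3 (adjusted p = 0.0386 with limma) and gave -0.52 without pool 1, against -0.03, which had not passed. No called member changed direction. Causes of these moves were not tested. The 1 control pool, the fixed dyes and 3 pools limit each value, and signal over background is unknown.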

Other observations

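Some receptor genes that did not pass had 1 pool far from the others, and these were picked after their values were seen. Nr6a1, a receptor of germ cells, read 0.01, 0.67 and -0.02 on the oligonucleotide array and 0.57, 2.65 and 0.65 on the cDNA array, so pool 2 was the highest on both. Its SD on the oligonucleotide array exceeded that of 99.3% of genes. Nr4a1, an immediate-early receptor, read -0.77, 0.02 and -0.07 on the oligonucleotide array and -1.20, 1.52 and -0.56 on the cDNA array, so pool 1 was the lowest on both, and its SD exceeded that of 99.5% of genes. Nr4a3 read -1.18, -2.55 and 0.27 on the cDNA array and between -0.09 and 0.02 on the oligonucleotide array. Nr2f2, which encodes COUP-TFII, read 0.59, 0.74 and 0.24 on the cDNA array and -0.06, 0.02 and -0.12 on the oligonucleotide array. A cDNA feature of Esr1 had a value in pool 3 only, at -2.29, and that of Rarg read -0.82 and -0.60 in pools 2 and 3.

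Markers of other cell types that a liver sample could hold were read on the oligonucleotide array. Of 9 neutrophil markers 8 were higher, with pool medians between 0.38 and 0.71, and of 11 lymphocyte markers 6 were higher, with 4 higher without pool 1. Of 5 cholangiocyte markers 2 were higher, and 1 without pool 1 or pool 2. Of 9 endothelial markers 2 were lower and 0 higher, and 0 were lower without pool 1 or pool 2.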
